A study of Mus musculus with 8 samples.

Results

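The neurofilament chains are the 4 genes Nefl, Nefm, Nefh and Ina, which encode the light, medium and heavy neurofilament chains and alpha-internexin. They were taken by gene name from the deposited gene tables, where all 4 were found among 54532 genes. Neurofilaments are the intermediate filaments of neurons. The light chain can form the filament core, to which the medium and heavy chains add long, heavily phosphorylated tails that project from the filament. Alpha-internexin joins the other chains in filaments of the adult central nervous system. Neurofilaments are most abundant in large myelinated axons, where they help to set axon calibre, and they move down the axon by slow transport.

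The study compared brain tissue of Nsun5-KO mice, which lack an enzyme that methylates ribosomal RNA, with that of wild-type (WT) littermates. All mice were 3-month-old males, anesthetized with pentobarbital sodium before the brain was taken. Ribosome footprints, the stretches of RNA that a ribosome covers and protects from digestion, were sequenced in 4 libraries labelled KO and 4 labelled WT, and the count table also holds an mRNA library under each of these 8 names. The protocol gives 5 mice per genotype and no label says which animal, or how many, went into a library. The p-values below therefore rest on the variation between libraries alone, which may be technical.

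KO and WT stand below for libraries so labelled. Nsun5, the targeted gene, had 102, 124, 83 and 110 mRNA counts in KO libraries 1 to 4, against 91, 82, 103 and 109 in WT libraries 1 to 4. The mRNA of Nsun5 therefore did not separate the genotypes, and the sources used here do not say which part of the gene was deleted. Footprint libraries held 0.586 to 1.297 M counts (M, mega) in KO and 1.20 to 3.49 M in WT, of which 0.233 to 0.847 M in KO and 0.792 to 1.47 M in WT lay on protein-coding genes. The mRNA libraries held 16.2 to 17.8 M counts in KO and 15.6 to 17.4 M in WT. Markers of neurons and glia were well covered, while those of the hindbrain and cerebellum varied within their lists. Over the 8 mRNA libraries the brainstem and spinal cord markers Hoxb3, Hoxa5 and Hoxb5 had 0, 1 and 4 counts, and Slc6a5 and Glra1 had 289 and 321. The cerebellar markers Pcp2, Gabra6 and Cbln3 had 31, 34 and 130 mRNA counts, and Cbln1 and Zic1 had 1972 and 4720.

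Per the deposited annotation (mouse build mm10), Nefl (ENSMUSG00000022055) lies on the plus strand at chr14:68083863-68089095 and has a gene length of 3380 bases. Nefm (ENSMUSG00000022054) lies on the minus strand at chr14:68082590-68124846, with a length of 5782 bases. Nefh (ENSMUSG00000020396) lies on the minus strand at chr11:4938754-4948064, with a length of 3994 bases. Ina (ENSMUSG00000034336) lies on the plus strand at chr19:47014698-47025327, with a length of 3240 bases. All 4 are annotated as protein-coding, and their values are sums over the gene.

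Nefl and Nefm lie close together, and the deposited Nefm span of 42257 bases contains the whole of Nefl on the opposite strand. RefSeq (GRCm38.p6) places Nefm at chr14:68119545-68125004, a span of 5460 bases that starts 30449 bases beyond the end of Nefl. Between the 2 lies 1 RefSeq gene. Whether the counting used strand is not given in the sources used here. If it did not, reads of Nefl and of the long Nefm annotation cannot be told apart where the 2 overlap.

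The 250 bases before the RefSeq start of Ina, chr19:47014431-47014680 on the plus strand of GRCm38.p6, are shown as the promoter of the 1 chain that matched the promoter table, not because of its values. Capitals mark the letters CCGCCC, the reverse complement of the GC box GGGCGG, to which Sp1-family factors bind.
Ina: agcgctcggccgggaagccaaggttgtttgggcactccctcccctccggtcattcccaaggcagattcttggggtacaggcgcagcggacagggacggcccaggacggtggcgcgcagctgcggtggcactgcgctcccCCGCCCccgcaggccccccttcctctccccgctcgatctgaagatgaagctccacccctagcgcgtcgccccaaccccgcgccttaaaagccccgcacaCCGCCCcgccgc
The GC box matched at 2 places, starting 111 and 12 bases before the start, and 32.7% of 32851 RefSeq windows of this length held it on either strand. The letters TATAAA were searched on both strands and are not in this window, and 12.4% of the windows held them. G and C made up 70.8% of the Ina window, more than in 91.7% of the windows. A match of letters describes the window and was not tied to the values below.

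Set against each other per length, the light chain led in mRNA and the heavy chain was last in both kinds of library. RPKM are counts that the authors scaled by gene length and by a factor for each library, which was not the plain total of counts. In RPKM the mRNA level of Nefl averaged 108 ± 5.33 in KO and 93.2 ± 7.77 in WT (SD, n = 4 each). Ina followed with 74.8 ± 4.04 mRNA RPKM in KO and 65.6 ± 4.29 in WT. The medium chain Nefm had 53.0 ± 5.13 mRNA RPKM in KO and 40.5 ± 6.49 in WT, and the heavy chain Nefh 27.0 ± 4.02 in KO and 22.6 ± 4.42 in WT.

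The mRNA order Nefl, Ina, Nefm, Nefh held in 8 of 8 mRNA libraries. Over the 8 libraries mRNA RPKM ranged over 84.1 to 114.7 for Nefl, 59.9 to 79.7 for Ina, 32.15 to 57.0 for Nefm and 16.3 to 32.14 for Nefh, so no neighbours in this order overlapped, although Nefm and Nefh came close. By mean mRNA RPKM Nefl ranked 352 of 11822 protein-coding genes, Ina 581, Nefm 976 and Nefh 1996. This order rests on the deposited gene lengths. The 5782 bases given for Nefm exceed its whole RefSeq span of 5460 bases. Levels, ranks and shares of Nefm per length, here and below, may therefore be too low. In mRNA counts not scaled by length, Nefm was above Ina in every library but WT 2, where they had 2931 and 3062.

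In footprints the order was less fixed. Ina averaged 21.7 ± 4.81 footprint RPKM in KO and 23.8 ± 3.88 in WT, Nefl 18.03 ± 6.62 in KO and 20.5 ± 4.42 in WT, and Nefm 15.4 ± 2.08 in KO and 18.9 ± 3.91 in WT (SD, n = 4 each). The heavy chain Nefh had 7.09 ± 1.10 footprint RPKM in KO and 9.96 ± 1.39 in WT. Nefh was last in 8 of 8 footprint libraries, and its range of 5.98 to 11.9 RPKM over all libraries lay below that of Nefm, 12.7 to 24.7. Ina, Nefl and Nefm overlapped and changed places: Ina was first in 5 footprint libraries, Nefl in 2 (KO 3 and KO 4) and Nefm in 1 (WT 4). By mean footprint RPKM Ina ranked 879 of 9637 protein-coding genes, Nefl 1041, Nefm 1186 and Nefh 2460.

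The share of each chain in the summed RPKM of the 4 gives the same picture free of library size. In mRNA, Nefl made up 41.1% ± 1.20 in KO and 42.1% ± 1.54 in WT, Ina 28.5% ± 1.27 in KO and 29.6% ± 1.18 in WT, Nefm 20.2% ± 1.73 in KO and 18.2% ± 1.49 in WT, and Nefh 10.2% ± 1.04 in KO and 10.1% ± 1.33 in WT (SD, n = 4 each). In footprints, Nefl made up 28.7% ± 9.73 in KO and 27.8% ± 3.59 in WT, Ina 34.8% ± 5.59 in KO and 32.7% ± 4.74 in WT, Nefm 25.1% ± 5.29 in KO and 25.8% ± 4.32 in WT, and Nefh 11.4% ± 1.603 in KO and 13.7% ± 2.11 in WT.

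The light chain therefore held less of the footprints than of the mRNA. Its footprint share was 13.3 ± 6.54 percentage points below its mRNA share (SD, n = 8 pairs of libraries of the same name), and it was lower in footprints in all 8 pairs. The medium chain was 6.28 ± 4.01 points higher in footprints and the heavy chain 2.40 ± 1.70 points higher, each in 8 of 8 pairs. Alpha-internexin was 4.65 ± 5.06 points higher, in 7 of 8 pairs. The 4 shares of a library make up a fixed whole, so a fall of Nefl forces a rise among the other chains. These rises are therefore not findings separate from the fall of Nefl. Set against the median protein-coding gene of the same library, the log2 footprint-to-mRNA ratio averaged −0.57 in KO and 0.05 in WT for Nefm. In KO and WT it averaged −0.71 and −0.01 for Nefh, −0.59 and −0.32 for Ina, and −1.46 and −1.05 for Nefl. Footprints fall on coding sequence while the deposited length covers the gene's whole annotated length. A chain with a longer untranslated part thus appears lower in footprint RPKM, and coding lengths were not used here.

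**Figure D1:**
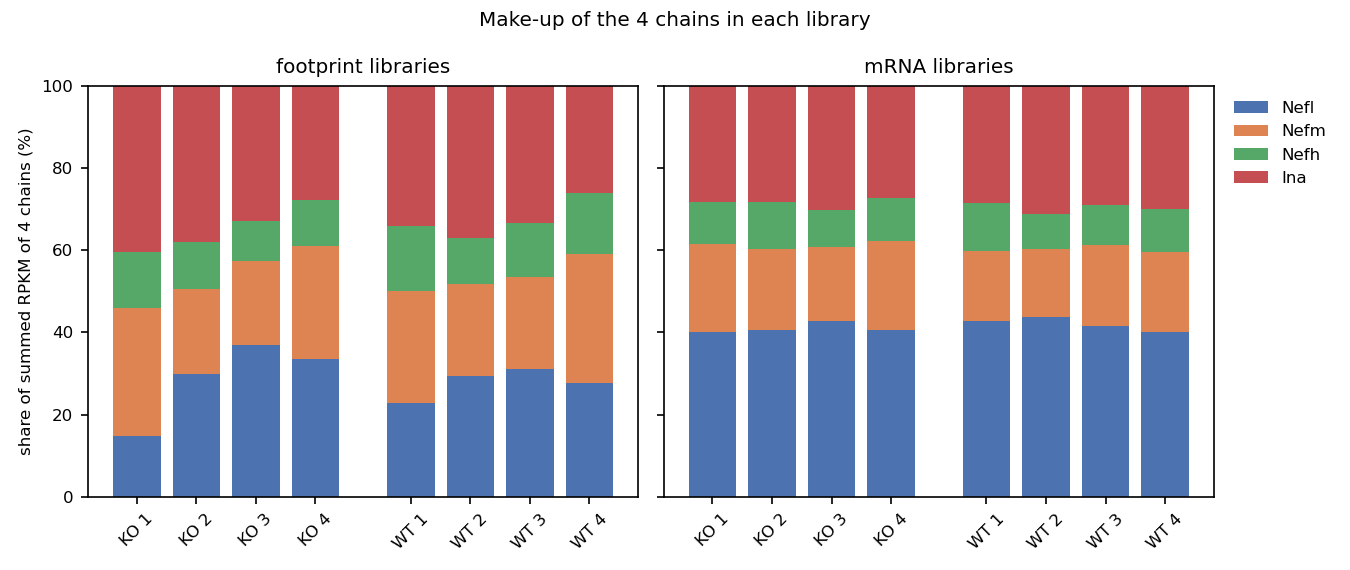
Share of Nefl, Nefm, Nefh and Ina in the summed RPKM of the 4 chains (vertical axis, percent) in each of 8 footprint libraries (left) and 8 mRNA libraries (right), KO before WT. The Nefl share was 40.1% to 43.7% in mRNA and 14.8% to 36.9% in footprints, where KO 1 had the lowest.

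In mRNA every chain averaged higher in KO than in WT, with mean ratios of 1.13 to 1.29, and no chain passed the test over all genes. Levels within a gene are given as CPM (counts scaled to 1 common library size after TMM normalization). The medium chain Nefm had 316, 322, 264 and 334 CPM in KO mRNA libraries 1 to 4, against 233, 189.8, 281 and 254 CPM in WT mRNA libraries 1 to 4. KO 3 lay inside the WT range and the other 3 KO libraries lay above it. The means were 309 ± 30.7 CPM in KO and 239 ± 38.3 CPM in WT (SD, n = 4 each), a log2 fold change of 0.37 ± 0.12 (SE, 95% interval 0.11 to 0.63, edgeR adjusted p = 0.367). Nefm ranked 338 of 13058 genes by unadjusted p, which was 0.00956 in edgeR.

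The light chain Nefl had 348, 391, 367 and 363 CPM in KO mRNA libraries, against 339.9, 290.2, 349 and 307 CPM in WT mRNA libraries. Only KO 1 and WT 3 overlapped, by less than 1 CPM. The means of 367 ± 17.9 CPM in KO and 322 ± 27.6 CPM in WT gave a log2 fold change of 0.19 ± 0.07 (SE, 95% interval 0.03 to 0.36, edgeR adjusted p = 0.430).

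Alpha-internexin, Ina, had 235, 261, 248.9 and 234 CPM in KO mRNA libraries, against 217, 198, 233 and 219 CPM in WT mRNA libraries. The groups did not overlap, but the lowest KO library and the highest WT library were less than 1 CPM apart. The means were 245 ± 12.8 CPM in KO and 217 ± 14.3 CPM in WT, a log2 fold change of 0.17 ± 0.07 (SE, 95% interval 0.02 to 0.33, edgeR adjusted p = 0.442). Over all genes tested, 2.85% (372 of 13058) had all KO above all WT libraries in mRNA CPM.

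The heavy chain Nefh had 105, 129.5, 90.1 and 111 CPM in KO mRNA libraries, against 109, 66.5, 97.3 and 95.6 CPM in WT mRNA libraries. KO 2 was the highest and WT 2 the lowest of the 8, and 2 KO libraries lay inside the WT range. The means of 109 ± 16.3 CPM in KO and 92.1 ± 18.1 CPM in WT gave a log2 fold change of 0.24 ± 0.15 (SE, 95% interval −0.09 to 0.57, edgeR adjusted p = 0.601). Without WT 2 the Nefh value was 0.11.

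At an unadjusted edgeR p under 0.05, 3 of 4 chains (Nefl, Nefm and Ina) were higher in KO mRNA, where 10.5% (1377 of 13058) of all genes were past it in either direction. With adjustment 0 of 4 chains and 0 of 13058 genes (0.0%) passed. The median log2 fold change of all genes was −0.01, with 6342 above 0 and 6716 below. WT 2 had the lowest mRNA level of each chain. Without WT 1 and WT 2, which stood apart in mRNA in an earlier analysis of these data, the log2 fold changes were 0.16 for Nefl, 0.21 for Nefm, 0.17 for Nefh and 0.11 for Ina.

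Lists of neuronal markers did not all lie on the same side in mRNA. Of 6 genes common to all neurons (Rbfox3, Syt1, Snap25, Eno2, Elavl3 and Elavl4), 6 were above 0 in mRNA, with a median of 0.16 in log2 fold change and a summed level of 5842 to 6396 CPM in KO and 4966 to 5439 CPM in WT. Of 6 markers of cerebral cortex projection neurons, 5 were above 0 in mRNA, with a median of 0.35 and a summed level of 1551 to 1996 CPM in KO and 1253 to 1532 CPM in WT. Of 4 markers of parvalbumin interneurons, 3 were above 0, with a median of 0.11. Of 4 markers of thalamus and midbrain, 1 was above 0, with a median of −0.05, and of 4 markers of motor and sensory neurons 2 were tested, both below 0 with a median of −0.75. All 9 markers of myelin and mature oligodendrocytes were below 0, with a median of −0.41 and 4648 to 6399 CPM in KO against 7171 to 7848 CPM in WT. For 5 cerebellar markers the summed mRNA level was 29.8 to 41.9 CPM in KO and 51.6 to 91.7 CPM in WT, most of it from Zic1 and Cbln1, the 2 of them that were tested. In bulk tissue, more or fewer cells of a type and more or less RNA per cell cannot be told apart, and the part of tissue make-up in the values of the chains was not tested.

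In footprints the chains lay the other way, each averaging lower in KO, and again none passed. The heavy chain Nefh had 26, 66, 13 and 27 counts in KO footprint libraries, against 71, 115, 113 and 132 counts in WT footprint libraries. As CPM these were 31.8, 34.8, 24.99 and 26.5 CPM in KO and 40.2, 35.7, 41.4 and 49.7 CPM in WT. Every KO library was below every WT library, with KO 2 and WT 2 less than 1 CPM apart. Over all genes tested, 2.04% (173 of 8476) had all KO below all WT libraries in footprint CPM.

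The Nefh means were 29.5 ± 4.58 footprint CPM in KO and 41.7 ± 5.87 CPM in WT (SD, n = 4 each). The log2 fold change was −0.47 ± 0.20 (SE, 95% interval −0.90 to −0.04), with an unadjusted edgeR p of 0.0331 and an adjusted p of 0.881. Counting error alone was large at this depth: the 13 counts of KO 3 have an exact Poisson interval of 6.92 to 22.2 counts, or 13.3 to 42.7 CPM, which covers counting error only. The coefficient of variation of Nefh over KO libraries was 15.5%, below the 17.4% that counting gives at their mean count. Counts as unequal as these give a larger counting error than that.

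The medium chain Nefm had 87, 174, 40 and 98 counts in KO footprint libraries, against 178, 338, 278 and 398 counts in WT footprint libraries. These came to 106, 91.8, 76.9 and 96.2 CPM in KO and 100.8, 104.8, 101.7 and 150 CPM in WT. KO 1 lay inside the WT range, the other 3 KO libraries lay below it, and WT 4 stood far above the rest. The means were 92.8 ± 12.2 CPM in KO and 114 ± 23.8 CPM in WT, and the log2 fold change was −0.30 ± 0.17 (SE, 95% interval −0.67 to 0.08, edgeR adjusted p = 0.881). Without WT 4 it was −0.13.

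The light chain Nefl had 24, 145, 42 and 69 counts in KO footprint libraries, against 87, 259, 227 and 206 counts in WT footprint libraries, or 29.3, 76.5, 80.7 and 67.7 CPM in KO and 49.3, 80.3, 83.1 and 77.6 CPM in WT. Library 1 was the lowest of its genotype on both sides, and the groups otherwise overlapped. The means were 63.6 ± 23.5 CPM in KO and 72.6 ± 15.7 CPM in WT, and the log2 fold change of −0.20 ± 0.26 (SE, 95% interval −0.76 to 0.37, edgeR adjusted p = 0.954) rested on KO 1. Without that library it was 0.04. The Nefl coefficient of variation over KO libraries was 36.9%, against 11.95% from counting at their mean count, which is too low for counts this unequal.

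Ina had 63, 177, 36 and 55 counts in KO footprint libraries, against 125, 313, 234 and 185 counts in WT footprint libraries. The levels were 76.96, 93.4, 69.2 and 54.0 CPM in KO and 70.8, 97.1, 85.6 and 69.7 CPM in WT. The groups overlapped, with only KO 4 clearly below the rest. The means of 73.4 ± 16.4 CPM in KO and 80.8 ± 13.0 CPM in WT gave a log2 fold change of −0.13 ± 0.19 (SE, 95% interval −0.53 to 0.28, edgeR adjusted p = 0.962), which was 0.01 without KO 4.

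At an unadjusted edgeR p under 0.05, 1 of 4 chains (Nefh) was lower in KO footprints, where 5.52% (468 of 8476) of all genes were past it in either direction. With adjustment 0 of 4 chains and 0 of 8476 genes (0.0%) passed. The median standard error of a footprint log2 fold change was 0.29 over all genes, against 0.11 in mRNA. The neuron markers lay below 0 in 5 of 6 cases in footprints, with a summed level of 3056 to 3478 CPM in KO and 3291 to 4569 CPM in WT. All 9 myelin markers were below 0 in footprints, at 1764 to 2255 CPM in KO and 2522 to 3030 CPM in WT. Their part in the footprint values of the chains was not tested.

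**Figure D2:**
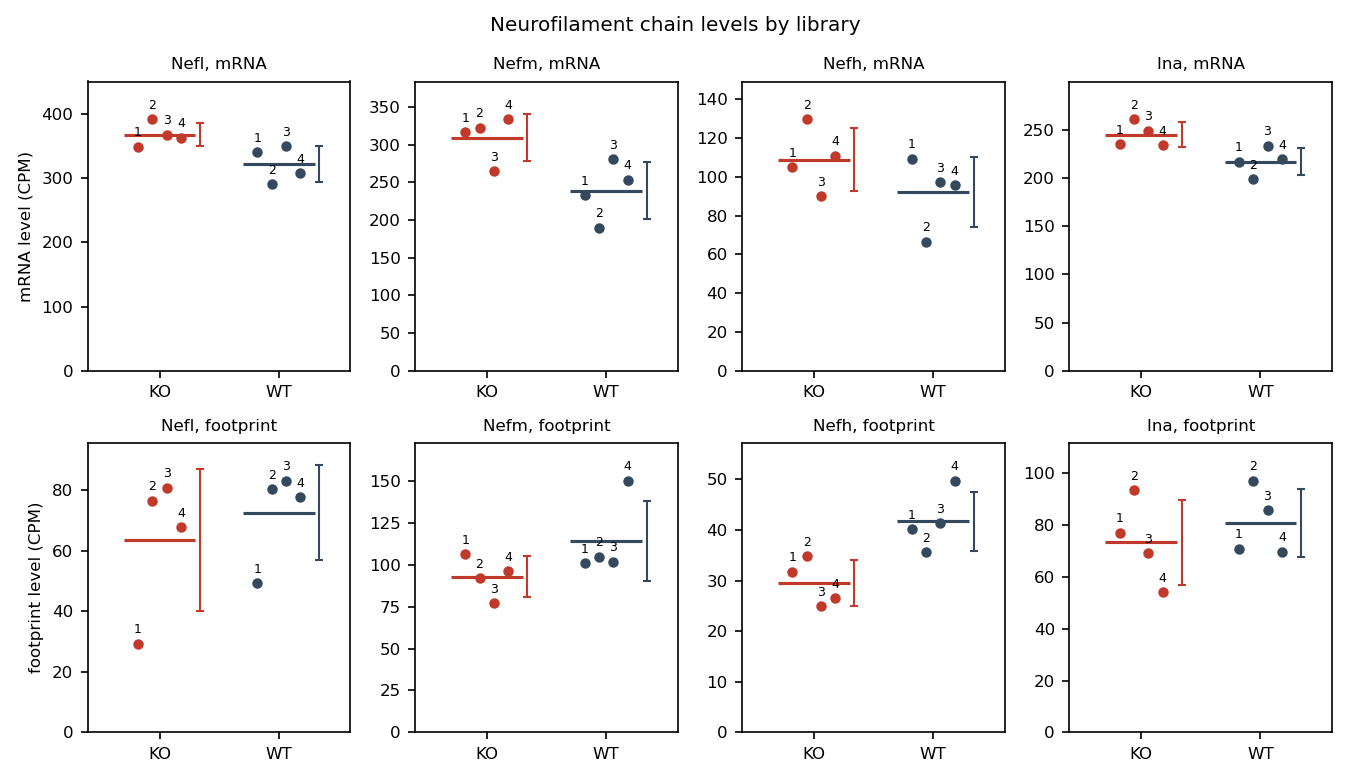
Level of each chain in CPM (vertical axes, from 0) in mRNA libraries (top) and footprint libraries (bottom), KO left of WT; points are libraries with their number, lines are means and bars are SD (n = 4). Nefh footprints were 24.99 to 34.8 CPM in KO and 35.7 to 49.7 CPM in WT, and Ina mRNA was 234 to 261 CPM in KO and 198 to 233 CPM in WT.

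The change in footprints per mRNA, called translational efficiency here, was tested as the interaction of genotype and library kind. The model did not pair the footprint and the mRNA library of the same name. This change combines the 2 differences above, and its log2 value was below 0 for all 4 chains, with none passing. For the heavy chain Nefh it was −0.68 ± 0.25 (SE, 95% interval −1.19 to −0.16, edgeR adjusted p = 0.345, 0.0128 before adjustment), a ratio of 0.626. For the medium chain Nefm it was −0.65 ± 0.21 (SE, 95% interval −1.08 to −0.21, edgeR adjusted p = 0.266, 0.00527 before adjustment), a ratio of 0.639, and Nefm ranked 186 of 9673 genes by p. The light chain Nefl had −0.37 ± 0.25 (SE, 95% interval −0.90 to 0.15, edgeR adjusted p = 0.618) and Ina had −0.28 ± 0.20 (SE, 95% interval −0.68 to 0.13, edgeR adjusted p = 0.637).

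Thus 2 of 4 chains were at an unadjusted p under 0.05, where 10.8% (1045 of 9673) of all genes were past it in either direction, and with adjustment 0 of 4 chains and 0 of 9673 genes (0.0%) passed. The median over all genes was 0.00, with 4880 above 0 and 4793 below. The neuron markers showed translational efficiency values below 0 in 5 of 6 cases with a median of −0.37, and the cortex projection neuron markers in 5 of 6 with a median of −0.54. The 3 parvalbumin interneuron markers tested were also below 0, with a median of −0.18. Other lists lay the other way. Of 4 thalamus and midbrain markers 3 were above 0, with a median of 0.21. The 2 cerebellar markers tested were above 0, with a median of 0.91, as was the 1 motor and sensory neuron marker tested, at 0.96. The cause of these directions was not tested.

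**Figure D3:**
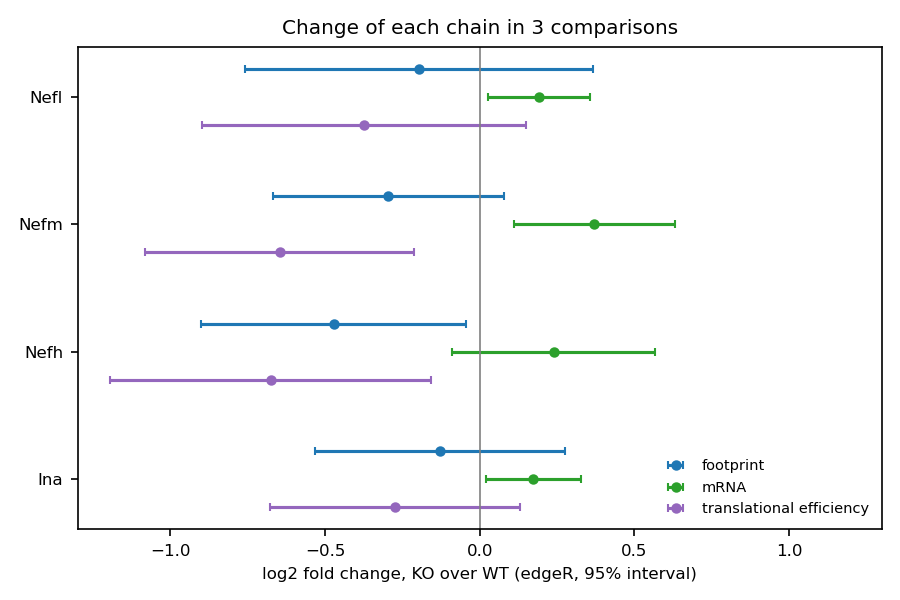
Log2 fold change of each chain, KO over WT (horizontal axis), in footprints, mRNA and translational efficiency, with edgeR 95% intervals; the grey line marks 0. The 4 mRNA values lie at 0.17 to 0.37, the footprint values at −0.47 to −0.13 and the translational efficiency values at −0.68 to −0.28.

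Per library, the footprint-to-mRNA ratio of a chain was set against the median protein-coding gene of the same library, on the log2 scale and over 9454 genes. The medium chain Nefm stood at −0.39, −0.69, −0.57 and −0.63 in KO libraries 1 to 4, against −0.10, 0.27, −0.34 and 0.38 in WT libraries 1 to 4. The heavy chain Nefh stood at −0.53, −0.77, −0.64 and −0.90 in KO, against −0.34, 0.22, −0.12 and 0.19 in WT. For both chains every KO library was below every WT library, a separation that 2.15% (203 of 9454) of all genes showed in this direction. In means, Nefm was at −0.57 ± 0.13 in KO and 0.05 ± 0.33 in WT, and Nefh at −0.71 ± 0.16 in KO and −0.01 ± 0.27 in WT (SD, n = 4 each).

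The light chain was low in every library. Nefl stood at −2.38, −1.23, −0.97 and −1.26 in KO libraries, against −1.68, −0.73, −0.95 and −0.85 in WT libraries, and library 1 was again the lowest on both sides. It lay between percentiles 6.19 and 23.2 of protein-coding genes in KO and between 7.65 and 23.6 in WT. Ina stood at −0.42, −0.35, −0.63 and −0.95 in KO and at −0.51, 0.09, −0.33 and −0.52 in WT, where the groups overlapped. Without KO 1 the log2 change in translational efficiency of Nefl was −0.18, and without WT 2 that of Ina was −0.13.

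**Figure D4:**
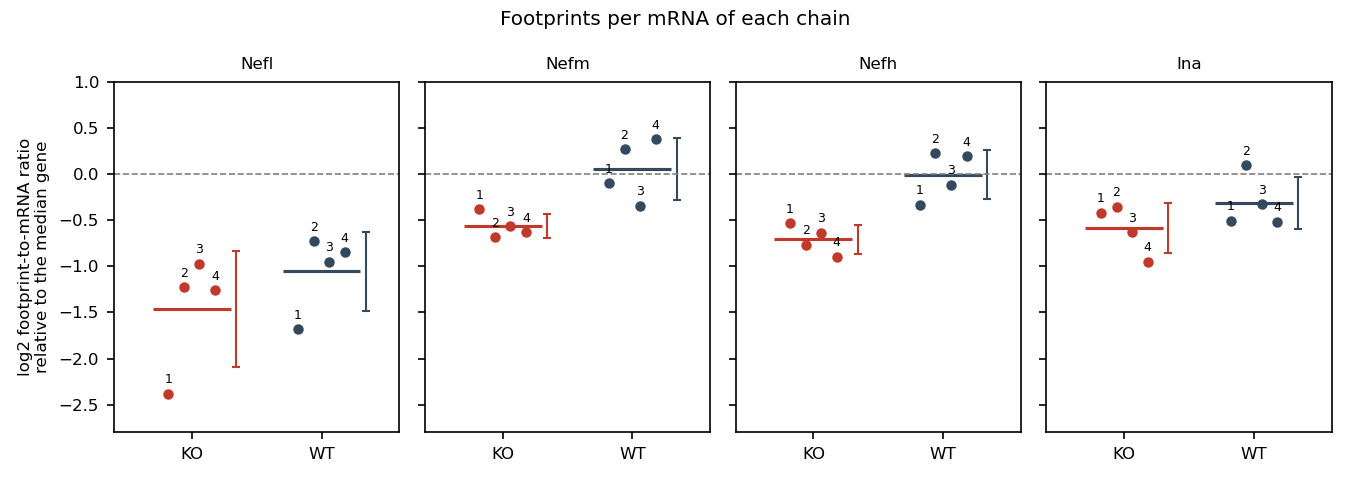
Log2 footprint-to-mRNA ratio of each chain relative to the median protein-coding gene of the same library (vertical axis, dashed line at 0), KO left of WT; points are libraries with their number, lines are means and bars are SD (n = 4). Nefm and Nefh lie at −0.90 to −0.39 in KO and −0.34 to 0.38 in WT, while Nefl lies below 0 in all libraries.

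The proportions between chains were compared for the 6 pairs of chains in each kind of library, by an exact two-sided permutation test of the log2 RPKM ratio over 70 arrangements, whose smallest possible p is 0.0286. The lowest raw p was 0.143 and the lowest p adjusted over the 12 ratios was 0.600. With this adjustment no single ratio could have passed, even with the groups fully apart, so the values are given as a description. The steadiest was Ina to Nefl in mRNA, with a ratio of 0.694 in KO and 0.704 in WT, a difference of −0.02 in log2 (exact permutation p = 0.657). Its SD over libraries was 0.03 in KO and 0.07 in WT. For Nefm to Nefl in mRNA the ratio was 0.490 in KO and 0.432 in WT, a log2 difference of 0.18 (exact permutation p = 0.2).

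The ratio of Ina to Nefm in mRNA was 1.42 in KO and 1.63 in WT, a log2 difference of −0.21 (exact permutation p = 0.143). In footprints, Nefh to Nefm was 0.460 in KO and 0.532 in WT, also −0.21 (exact permutation p = 0.143). Nefh to Ina in footprints was 0.330 in KO and 0.420 in WT, a log2 difference of −0.35 (exact permutation p = 0.2). Ratios to Nefl in footprints were unsteady: Nefm to Nefl was 2.12 in KO 1 and 0.557 to 0.830 in the other KO libraries, and 0.716 to 1.20 in WT libraries. All groups overlapped in these ratios.

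Likeness of pattern over the 8 libraries was measured as the root mean square difference of centred log2 CPM, where 0 is an identical pattern. Nefl and Ina were close in mRNA at 0.0476. Ina was the 4th closest gene to Nefl of 10622 candidates, and Nefl the 9th closest to Ina of 10931. The other pairs of chains in mRNA were at 0.162 to 0.197. The measure also grows with the spread of the genes themselves. The SD of log2 CPM over the 8 mRNA libraries was 0.140 for Nefl and 0.123 for Ina, against 0.275 for Nefm and 0.281 for Nefh. In footprints Nefm and Nefh were the closest pair of chains at 0.180. Among all candidates Nefh was only the 65th closest to Nefm of 3456, and Nefm the 38th closest to Nefh of 3283. Nefl was 0.506 to 0.557 from each other chain in footprints, where its own SD was 0.512.

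Among the genes closest to Nefl in mRNA were Frmpd1 at 0.0257 and Asph at 0.0453. Those closest to Ina were Mical3 at 0.0296, Asph at 0.0323 and Lrp3 at 0.0369. Nefm was closest to Asb13 at 0.0845, Sdhaf4 at 0.0869 and Rpp25 at 0.0926, and Nefh to Rpp25 at 0.0948, the ankyrin Ank1 at 0.108 and Eml3 at 0.111. These values describe 8 libraries of 2 genotypes and carry no test.

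In footprints the closest genes were Lypla2 at 0.179, Ankfy1 at 0.194 and Ndufs4 at 0.202 for Nefl. For Nefm they included Slc25a3, the mitochondrial phosphate carrier, at 0.0566 and Eipr1 at 0.120. For Nefh they were Rab6b at 0.123, Zdhhc9 at 0.1297 and Osbpl2 at 0.1305, and for Ina they were Ociad1 at 0.106, Diras2 at 0.108 and Gabrb2 at 0.111. No gene was among the 3 closest to a chain in both kinds of library.

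The partners of neurofilaments were described through 52 genes in 8 lists. In mRNA 51 were tested, 31 above 0 and 20 below with a median log2 fold change of 0.03, none passed, and 7 had an unadjusted edgeR p under 0.05, where 10.5% of all genes did. In footprints 46 were tested, 21 above 0 and 25 below with a median of −0.01, none passed, and 1 had an unadjusted p under 0.05, against 5.52% of all genes. In translational efficiency 48 were tested, 26 above 0 and 22 below with a median of 0.01, none passed, and 8 had an unadjusted p under 0.05, against 10.8% of all genes.

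Among the kinases and phosphatases of the filament tails, Cdk5, which phosphorylates the tails of the medium and heavy chains, had 56.9 ± 12.1 footprint CPM in KO and 79.8 ± 8.48 in WT, a log2 fold change of −0.47 ± 0.17 (SE, adjusted p = 0.875 in edgeR). It was the gene of the lists at an unadjusted p under 0.05 in footprints (0.0170 in edgeR). Its activator Cdk5r1 (p35) had 399.6 ± 12.9 mRNA CPM in KO and 365 ± 20.8 in WT, a log2 fold change of 0.13 ± 0.06 (SE, adjusted p = 0.495 in edgeR). Of the 9 genes, 6 were above 0 in mRNA and 5 in footprints.

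Of 8 axonal transport motor genes, 7 were above 0 in mRNA and 5 in footprints, with medians of 0.06 and 0.03. The exception in mRNA was Kif5b, a kinesin heavy chain, with 327 ± 14.3 mRNA CPM in KO and 373 ± 12.9 in WT, a log2 fold change of −0.19 ± 0.06 (SE, adjusted p = 0.367 in edgeR). The kinesin light chain Klc2 had 279 ± 14.9 mRNA CPM in KO and 227 ± 37.7 in WT, a log2 fold change of 0.30 ± 0.11 (SE, adjusted p = 0.406 in edgeR), and 94.4 ± 22.7 footprint CPM in KO and 112 ± 20.1 in WT. Dctn1, the large dynactin subunit, had 197 ± 27.6 footprint CPM in KO and 232 ± 18.6 in WT.

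Of 12 microtubule genes, 6 of 12 were above 0 in mRNA and 3 of 11 tested in footprints. Map1a, a microtubule-associated protein of mature neurons, had 1089 ± 48.9 mRNA CPM in KO and 947 ± 94.4 in WT, a log2 fold change of 0.20 ± 0.08 (SE, adjusted p = 0.427 in edgeR). The beta-tubulin gene Tubb2b had 90.3 ± 6.90 mRNA CPM in KO and 101.8 ± 6.47 in WT, a log2 fold change of −0.17 ± 0.07 (SE, adjusted p = 0.459 in edgeR). In footprints Tubb2a, another beta-tubulin, had 332 ± 35.9 CPM in KO and 270.1 ± 54.7 in WT, and Dpysl2 (Crmp2), a tubulin-binding protein of axon growth, had 1101 ± 76.6 in KO and 1289 ± 194 in WT.

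Of 6 other intermediate filament genes, 5 were tested in mRNA, of which 1 was above 0. Vim, the vimentin of glial and vascular cells, had 32.7 ± 2.80 mRNA CPM in KO and 38.7 ± 3.45 in WT, a log2 fold change of −0.24 ± 0.09 (SE, adjusted p = 0.420 in edgeR), while synemin (Synm) had 40.7 ± 3.21 in KO and 44.4 ± 1.02 in WT. The astrocyte filament gene Gfap had 66.5 ± 28.3 footprint CPM in KO and 57.6 ± 17.0 in WT, and Synm 13.5 ± 2.63 in KO and 9.62 ± 4.30 in WT. The 3 of these genes tested for translational efficiency were above 0, with a median of 0.41, while the 4 neurofilament chains were below 0. The difference between the 2 sets of genes was not tested.

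The 3 filament cross-linkers, large plakins, had a median of 0.01 in mRNA and 0.06 in footprints. Plectin (Plec) had 129.9 ± 8.01 mRNA CPM in KO and 112 ± 23.2 in WT, and 58.2 ± 6.86 footprint CPM in KO and 64.5 ± 6.78 in WT. Macf1 had 286 ± 15.3 mRNA CPM in KO and 305 ± 22.6 in WT, and 79.2 ± 17.4 footprint CPM in KO and 69.0 ± 3.82 in WT. The 6 spectrin, ankyrin and adducin genes of the axonal membrane skeleton had medians of 0.06 in mRNA and −0.04 in footprints. Alpha-spectrin (Sptan1) had 1036 ± 42.9 mRNA CPM in KO and 953 ± 17.3 in WT, and the axon initial segment ankyrin Ank3 had 126.9 ± 24.0 footprint CPM in KO and 152 ± 8.22 in WT. Ank2 had 657 ± 47.2 mRNA CPM in KO and 622 ± 31.4 in WT, and 287 ± 35.3 footprint CPM in KO and 319 ± 26.1 in WT.

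Of 5 genes of filament turnover and chaperones, 4 were above 0 in mRNA, with a median of 0.01. The small heat shock protein Cryab was the exception, with 82.9 ± 7.92 mRNA CPM in KO and 96.8 ± 6.15 in WT, a log2 fold change of −0.22 ± 0.08 (SE, adjusted p = 0.406 in edgeR), and it had 99.8 ± 30.3 footprint CPM in KO and 86.8 ± 17.0 in WT. Hspb1, another small heat shock protein, had 11.01 ± 2.70 mRNA CPM in KO and 9.10 ± 1.63 in WT. Trim2, a ubiquitin ligase of the light chain, had 137.8 ± 17.98 footprint CPM in KO and 155 ± 15.1 in WT.

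The 3 RNA-binding genes had a median of −0.02 in mRNA and −0.15 in footprints. Tardbp (TDP-43), which binds the light chain mRNA, had 76.6 ± 22.8 footprint CPM in KO and 96.4 ± 16.2 in WT, a log2 fold change of −0.29 ± 0.21 (SE, adjusted p = 0.891 in edgeR). Arhgef28, another binder of the light chain mRNA, had 32.4 ± 10.3 mRNA CPM in KO and 41.3 ± 12.3 in WT, and 24.9 ± 6.35 footprint CPM in KO and 17.3 ± 5.62 in WT. Elavl2, a neuronal RNA-binding protein, had 130.7 ± 5.03 mRNA CPM in KO and 127 ± 13.2 in WT.

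As a share of all protein-coding counts, the 4 chains together made up 0.104% ± 0.00724 of mRNA in KO and 0.0887% ± 0.00954 in WT (SD, n = 4 each). In footprints they made up 0.0580% ± 0.00567 in KO and 0.0691% ± 0.00820 in WT. The 4 genes thus took a smaller part of the footprints than of the mRNA in both genotypes. The shares came closest in WT 2, at 0.0699% of footprints and 0.0754% of mRNA. As footprints fall on coding sequence and mRNA counts cover untranslated parts too, these shares of counts are not a measure of translation alone.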

How the data were processed

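Per the file headers, the authors deposited raw read counts per Ensembl gene for 8 footprint and 8 mRNA libraries, with a gene length in bases, and RPKM values that they computed for each kind. The submitters' processing notes name TopHat2 and mm10. The counting program, its strand setting and the annotation release are not given in the sources used here. Counts were fitted with edgeR 4.0.16 (R 4.3.3, TMM, quasi-likelihood test) over all genes that passed a filter: filterByExpr with a minimum count of 10 for footprints, a mean RPKM of at least 1 for mRNA, and at least 1 in both kinds for translational efficiency. P-values were adjusted by Benjamini-Hochberg over all genes tested, with a threshold of 0.05. All 4 chains passed each filter. CPM are per TMM-scaled library size. Ratios between chains were tested by exact permutation (SciPy 1.17.1). Alternatives used DESeq2 1.42.0 and limma 3.58.1. The pipeline was also run on simulated data, where the changes put in were larger than the mRNA changes of the chains. That run therefore does not show the power to detect changes of that size.

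The chains and the gene lists were chosen with earlier results of these data known. Named were the 4 chains, Nsun5, of each partner list up to 2 genes with the lowest unadjusted p in each kind of library, and for each chain and kind the 3 protein-coding genes closest in pattern, with a mean count of at least 50 and an SD of at least 0.5 times that of the chain. A few genes that this rule or the marker lists hold are not reported here. Sequences and RefSeq positions are from RefSeq GRCm38.p6, where 4 of 4 chains matched the gene table and 1 the promoter table. Footprint length, position and reading frame were not analysed here.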

Additional observations from a re-analysis of the deposited data

Results flagged for a closer look

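Of 48 sets of 4 values screened with Dixon's test at the 95% level, 3 held a library that stood apart, where chance flags about 1 in 20. The Nefl footprint level of WT 1 was 49.3 CPM, below the 77.6 to 83.1 CPM of the other WT libraries (gap over range 0.839). KO 1 was likewise the lowest KO library for Nefl, at 29.3 CPM, with a gap over range of 0.747 that does not reach the critical value. The Nefm footprint level of WT 4 was 150 CPM, above the 100.8 to 104.8 CPM of the other WT libraries (0.919). The log2 ratio of Nefh to Nefm in mRNA was −0.78 in KO 2, above the −1.06 to −1.02 of the other KO libraries (0.852).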

How the results depend on the processing

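No chain passed the adjusted threshold in any of the 3 comparisons under any alternative run. The lowest adjusted p was 0.113 for Nefm mRNA and 0.120 for Nefm translational efficiency, both in DESeq2. The direction of all mRNA and translational efficiency values was the same throughout. Leaving out 1 library at a time, footprint log2 fold changes ranged over −0.33 to 0.0414 for Nefl, −0.36 to −0.13 for Nefm, −0.57 to −0.36 for Nefh and −0.28 to 0.00971 for Ina, turning for Nefl without KO 1 and for Ina without KO 4. Ratios of chains that turned, none called, ranged over −0.43 to 0.21 (Nefm to Nefl), −0.26 to 0.31 (Ina to Nefl) and −0.0668 to 0.30 (Ina to Nefm) in footprints, and −0.0456 to 0.14 (Nefh to Nefl), −0.0486 to 0.00636 (Ina to Nefl) and −0.0303 to 0.17 (Nefh to Ina) in mRNA. Without WT 1 and 2, Nefm to Nefl in footprints was 0.0179 and Nefh to Nefl in mRNA −0.00389.

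Genes called over the whole table were 0 in each of the 3 comparisons as reported, but not under every alternative, edgeR fits included. For footprints there were 4 with DESeq2, 3 with protein-coding genes only and 86 with no filter. For mRNA there were 87 with DESeq2, 24 with no filter and 0 to 2 leaving out 1 library. For translational efficiency there were 144 with DESeq2, 2 with no filter, 0 to 4 leaving out 1 name, and 5 with the library name as a block, chosen after seeing the data. The cause was not tested. With a replicate block, translational efficiency had 1 call, and the log2 values of the chains were −0.37 for Nefl, −0.64 for Nefm, −0.68 for Nefh and −0.28 for Ina. With the library name as a block, which pairs the 2 kinds of library, they were −0.40 for Nefl, −0.66 for Nefm, −0.75 for Nefh and −0.30 for Ina. Deviations of KO and WT libraries of the same number correlated at −0.247 to 0.075 in footprints and −0.238 to 0.031 in mRNA, so the numbers are not shown to pair libraries. Counts per codon were not run, as coding lengths were not used here. KO footprint counts as low as 13 limit what a difference can show.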
